A study of Homo sapiens with 6 samples.

Results

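Antisense long noncoding RNAs (lncRNAs) whose symbol ends in -AS and a number were examined in MDA-MB-231 cells, together with the sense gene named in front of the suffix. The members were chosen by their annotation as lncRNA, by this name pattern and by a measured value, a mean raw count of at least 20 over the 6 libraries. Of 1800 genes with the name pattern, 1292 had at least 1 count and 291 reached the threshold. All 291 also passed the filter on low counts, among 15261 genes tested. The sense genes, 285 in number for 289 members, were not members themselves, and TRD-AS1 and MYL12-AS1 had no gene of the matching name. MDA-MB-231 is an established human breast cancer line with a mesenchymal character that lacks the estrogen and progesterone receptors. The control group consisted of 3 wells without added vitamin C, and the vitamin C group of 3 wells given 100 μM sodium ascorbate for 3 days, with the medium changed every day. Both groups were unmodified cells of the same line, and total RNA depleted of ribosomal RNA was sequenced. Wells of 1 line are not independent isolates of a tumour, so the P values weigh the difference between groups against the spread between these wells only.

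An antisense lncRNA is transcribed from the strand opposite to another gene, often from within or beside that gene, and is usually spliced and kept at lower levels than an mRNA. Such RNAs have been described as acting on their neighbours in cis, for instance by pairing with the sense transcript, by recruiting chromatin factors or through the act of transcription itself, and many have no known role. Vitamin C is a cofactor of TET enzymes, which oxidize methylated cytosine, and of the prolyl hydroxylases that mark the hypoxia-inducible factor HIF-1α for destruction. Promoters rich in CG dinucleotides and the HIF binding core are therefore described below for the loci on which the results turn.

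The following RefSeq windows (GRCh38.p14) are shown because these 3 members carry the findings: HIF1A-AS3 was lower while its sense gene was higher, PHLDA1-AS1 lies within the exons of its sense gene, and UBE2Q1-AS1 gave the smallest P among the members. Each window runs 5′ to 3′ on the strand of the lncRNA, from 250 bases before its start to 50 after. Capitals mark the HIF core, ACGTG or GCGTG, on either strand, and no matches overlap in these windows. The windows lie at chr14:61751048-61751347 (minus strand) for HIF1A-AS3, at chr12:76030244-76030543 (plus strand) for PHLDA1-AS1 and at chr1:154553359-154553658 (plus strand) for UBE2Q1-AS1.
HIF1A-AS3: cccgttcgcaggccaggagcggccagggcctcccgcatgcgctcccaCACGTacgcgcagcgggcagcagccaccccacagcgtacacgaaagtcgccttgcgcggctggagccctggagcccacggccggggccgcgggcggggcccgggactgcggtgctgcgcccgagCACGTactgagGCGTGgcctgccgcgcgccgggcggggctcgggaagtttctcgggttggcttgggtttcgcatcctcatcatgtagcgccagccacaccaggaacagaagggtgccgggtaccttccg
PHLDA1-AS1: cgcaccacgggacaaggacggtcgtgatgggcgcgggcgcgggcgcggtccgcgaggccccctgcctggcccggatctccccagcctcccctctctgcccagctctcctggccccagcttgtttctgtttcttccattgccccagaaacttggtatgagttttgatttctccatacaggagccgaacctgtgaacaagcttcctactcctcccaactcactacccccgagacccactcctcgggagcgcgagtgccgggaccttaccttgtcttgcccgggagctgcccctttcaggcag
UBE2Q1-AS1: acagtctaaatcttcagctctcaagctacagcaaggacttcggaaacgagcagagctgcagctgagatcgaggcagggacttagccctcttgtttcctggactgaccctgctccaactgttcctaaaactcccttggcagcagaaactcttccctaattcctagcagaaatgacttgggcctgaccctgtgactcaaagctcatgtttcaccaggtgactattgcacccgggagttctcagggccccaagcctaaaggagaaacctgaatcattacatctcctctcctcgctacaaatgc
The HIF1A-AS3 window held 3 matches to the core and 36 CG dinucleotides. The other 2 windows held 0 matches, with 20 CG dinucleotides for PHLDA1-AS1 and 5 for UBE2Q1-AS1. The UBE2Q1-AS1 window lies inside an intron of UBE2Q1. Of the members, 224 had a window in the RefSeq table, and 58.5% of their first windows held the core, against 57.1% of 245 sense gene windows and 48.4% of the windows of all 27305 genes. Among the members that passed the test below, 8 of 16 windows held it. The median number of CG dinucleotides was 22 in members, 25 in sense genes and 14 in all genes. A match is a letter string and not a measured binding site.

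The gene counts summed to between 13434130 and 22373591 per library. Levels are CPM, counts per 1000000 of the TMM-scaled library size, with factors between 0.972 and 1.02. The mesenchymal markers VIM, AXL, CAV1 and CD44 stood at 245, 173, 179 and 105 CPM per kb. The genes for the estrogen receptor, ESR1, and for the leukocyte antigen CD45, PTPRC, stood at 0 and 0.0037 CPM per kb. The share of unmapped reads ranged from 24.2% to 49.5% and was highest in vitamin C 2.

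Most members were low. The median mean count was 52, with a range from 20 to 3940, and 142 of 291 members lay under 50. Per kb of exonic length the median member stood at 0.948 CPM and the highest, FGD5-AS1, at 36.3. In the 289 pairs, with sense genes too low to be tested included, the median ratio of the member to its sense gene was 0.249 per kb. In 77 of these pairs the member stood above the sense gene. Members were on the opposite strand in 288 of 289 pairs, and 282 sense genes were protein-coding. The exons of the member and of the sense gene shared bases in 238 pairs, so that the counts depend on how strands were separated.

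The sources used here do not give the strand setting of the gene counting, and the counts themselves were therefore examined. A read placed where 2 genes overlap is discarded as ambiguous when strand is ignored. Among 163 genes that lie, for at least 98% of their exonic bases, within exons of an opposite-strand gene with more than 1000 counts, 147 (90.2%) nevertheless had counts. Among 176 genes contained in the same way in a gene on their own strand, 40 (22.7%) had counts. An opposite-strand gene thus did not remove the counts of the genes inside it as one on the same strand mostly did. Overlap with another gene on the same strand remained, and 25 members had at least 10% of their exonic bases in the body of such a gene.

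Members were higher after vitamin C more often than lower. With the quasi-likelihood test of edgeR and Benjamini-Hochberg adjustment, 18 of 291 members (6.19%) passed at an adjusted P of 0.05. Of these, 16 (5.50%) rose and 2 (0.687%) fell. Among all 15261 genes tested 7.08% passed, 3.6% higher and 3.48% lower. In this fit members thus passed about as often as other genes and were rarely among those that fell. When DESeq2 was also required to pass, 16 members were higher and 1 was lower, and 6.34% of all genes passed both tools. The 3 vitamin C wells lay above the 3 control wells for 70 of the 291 members and below them for 22. Of all 15261 genes tested, 32.3% showed no overlap, 2402 higher (15.7%) and 2533 lower (16.6%). In a bulk library a change of the RNA in every cell and a change in the share of cells that hold it cannot be told apart.

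Most members lay above 0. The median log2 fold change, vitamin C over control, was 0.18 in members, with 195 above 0 and 96 below, beside 0.02 over all genes tested, 0.00 over protein-coding genes and 0.02 over the sense genes. The lncRNAs outside the members had a median of 0.20, and 47 of 1472 rose while 14 fell. LincRNAs numbered after the prefix LINC had a median of 0.21, with 8 of 172 higher and 1 lower. Divergent transcripts with the suffix -DT had a median of 0.04, with 4 of 179 higher and 0 lower. A shift of this size was thus also seen in lncRNAs of other names, and differences between the classes were not tested.

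**Figure D1:**
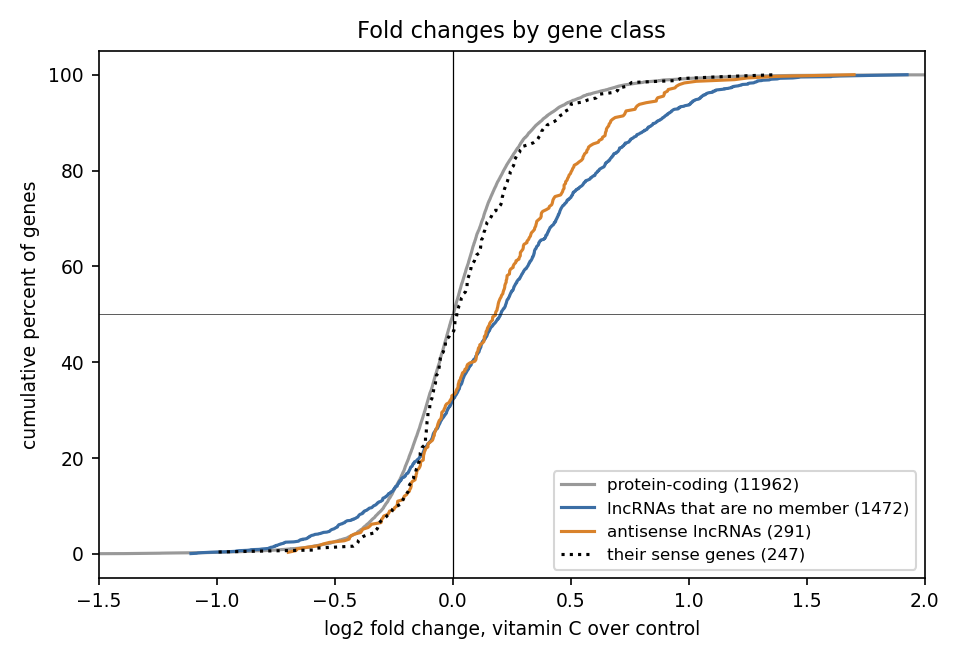
Cumulative percent of genes (y axis) against the log2 fold change after vitamin C (x axis) for protein-coding genes, lncRNAs that are no member, antisense lncRNAs and their sense genes. The curve of the antisense lncRNAs runs beside that of the other lncRNAs around the median, at 0.18 and 0.20, and the curve of their sense genes runs beside that of protein-coding genes.

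Members took 0.190%, 0.195% and 0.192% of all gene counts in the control wells, in the order of their numbers, and 0.205%, 0.223% and 0.212% in the treated wells. The vitamin C wells were all above the control wells, and vitamin C 2 was the highest. Another share moved with this one: of the uniquely mapped reads, 17.4%, 17.8% and 16.2% fell in no gene in the control wells and 19.7%, 21.7% and 19.2% in the treated wells. These groups did not overlap either, and vitamin C 2 was again the highest. The part of these reads outside genes in the rise of the members was not tested. Relative to the control mean, the median member stood at 0.09, 0.22 and 0.10 on the log2 scale in the treated wells, and without vitamin C 2 the median log2 fold change of the members was 0.10.

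**Figure D2:**
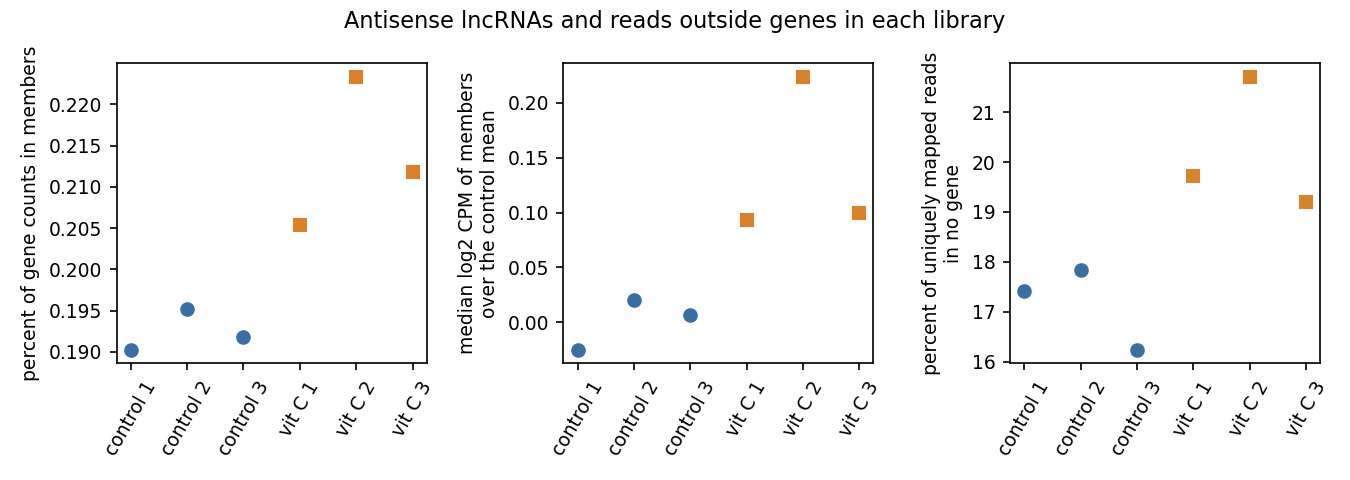
For each of the 6 libraries (x axis), the percent of gene counts in the 291 members, the median over members of log2 CPM relative to the control mean, and the percent of uniquely mapped reads that fell in no gene (y axes, not starting at 0). In all 3 panels the vitamin C wells lie above the control wells, and vitamin C 2, with 0.223% and 21.7%, is the highest.

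With a single library left out, 17 of the 18 members missed the threshold in at least 1 fit, and the highest adjusted P by edgeR of each lay between 0.0508 and 0.146. Omission of control 1 or 2 ended 17 and 16 of the 18 calls, omission of control 3 ended 11, and omission of vitamin C 1, 2 or 3 ended 11, 12 and 3. Calls over all genes also changed, from 7.08% with all libraries to 0.809%, 0.917% and 4.47% without control 1, 2 and 3. Without vitamin C 1, 2 and 3 they were 2.47%, 3.2% and 12.3%.

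UBE2Q1-AS1 kept its call in every fit with a library left out and also gave the smallest P of the members. It starts within UBE2Q1, which encodes a ubiquitin-conjugating enzyme, and lies wholly inside the body of that gene (chromosome 1, 154553609 to 154555017), with 11.8% of its exonic bases in UBE2Q1 exons. It stood at 2.11, 2.35 and 2.49 CPM in the control wells and at 5.11, 6.16 and 5.32 CPM in the vitamin C wells. All treated wells were above all control wells. The log2 fold change was 1.25 (SE 0.17, adjusted P = 0.00528 by edgeR), and UBE2Q1-AS1 passed in all 12 alternatives of tool, scaling, filter, block and left-out library. UBE2Q1 itself had 101 ± 5.94 CPM without and 117 ± 9.75 CPM with vitamin C (SD, n = 3 each). Its log2 fold change of 0.21 did not pass (adjusted P = 0.128 by edgeR). The log2 ratio of UBE2Q1-AS1 to UBE2Q1 was 1.01 higher in the vitamin C wells, with no overlap (exact two-sided permutation P = 0.1, the smallest that 3 against 3 wells allow).

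PHLDA1-AS1 was the second most abundant member per kb, at 23.2 CPM per kb. It lies inside PHLDA1, a pleckstrin-homology domain protein induced by growth factor signalling, and 97.2% of its 569 exonic bases are within PHLDA1 exons (chromosome 12, 76030494 to 76031378). The control wells had 7.06, 9.50 and 7.26 CPM and the vitamin C wells 13.6, 28.7 and 12.9 CPM. The groups did not overlap, and vitamin C 2 stood apart from the other treated wells. The log2 fold change was 1.19 (SE 0.27, adjusted P = 0.0296 by edgeR), and without vitamin C 2 it was 0.73 (adjusted P = 0.0293 by edgeR). Without control 1, 2 or 3 the edgeR adjusted P was 0.126, 0.0663 and 0.0644. PHLDA1 had 540, 530 and 557 CPM in the control wells and 587, 484 and 587 CPM in the vitamin C wells, so its groups overlapped. Its log2 fold change was 0.03 (SE 0.09, adjusted P = 0.868 by edgeR). PHLDA1 was lowest in vitamin C 2, the well in which PHLDA1-AS1 was highest.

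Some of the genes around PHLDA1 in growth factor signalling passed. Of 18 family members and ERK output genes tested, 2 rose (11.1%) and 1 fell (5.56%), beside 3.6% and 3.48% of all genes tested. The median log2 fold change of the 18 was 0.01 beside 0.02 over all genes. Those that rose were the EGF receptor ligands EREG and AREG, by 1.06 and 0.60 on the log2 scale, and DUSP6, an ERK phosphatase, fell by 0.31 on the log2 scale (SE 0.08, adjusted P = 0.0487 by edgeR). The call of DUSP6 was lost with voom (adjusted P = 0.0506), upper-quartile factors (0.0646), the replicate block (0.0681) and 5 of 6 omissions of a single library, in which the adjusted P by edgeR ranged from 0.0595 to 0.164.

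HIF1A-AS3 was 1 of 2 members that fell and the only member in a pair whose partners both passed in opposite directions. It starts beyond the 3′ end of HIF1A and runs antisense through much of it (chromosome 14, 61707298 to 61751163), with 94.5% of its exonic bases in the body of HIF1A and 5.93% in its exons. The control wells had 5.52, 5.55 and 5.47 CPM and the vitamin C wells 3.56, 4.20 and 3.11 CPM. The control wells lay within a narrow range and all treated wells were below it. The log2 fold change was -0.62 (SE 0.16, adjusted P = 0.0447 by edgeR). With DESeq2 the adjusted P was 0.0589, and by edgeR it was 0.0530 with upper-quartile factors and 0.0679 with the replicate block. With a single library left out it ranged from 0.0472 to 0.130 by edgeR, passing only without vitamin C 2. HIF1A-AS3 thus passed in only 4 of 12 alternatives.

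HIF1A, which encodes HIF-1α, moved the other way. It had 783, 873 and 871 CPM in the control wells and 1297, 1406 and 1400 CPM in the vitamin C wells. All treated wells were above all control wells, with a log2 change of 0.70 (SE 0.08, adjusted P = 0.00156 by edgeR). The log2 ratio of HIF1A-AS3 to HIF1A was -7.12, -7.27 and -7.29 in the control wells and -8.47, -8.35 and -8.76 in the vitamin C wells, a difference of -1.30 (exact two-sided permutation P = 0.1, the smallest possible). HIF1A-AS1, at the start of HIF1A, had a mean count of 18.8 and lay just below the threshold for members. Of 9 tested HIF subunits and oxygen-sensing hydroxylases, HIF1A rose (11.1%) and 2 fell (22.2%), beside 3.6% and 3.48% of all genes tested. The median log2 fold change of the 9 was 0.08. The 2 that fell were the prolyl hydroxylases EGLN1, from 241 ± 15.0 to 169 ± 2.88 CPM, and EGLN3, from 8.40 ± 0.442 to 3.41 ± 0.537 CPM (SD, n = 3 each). The adjusted P by edgeR was 0.00670 for EGLN1 and 0.00304 for EGLN3.

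**Figure D3:**
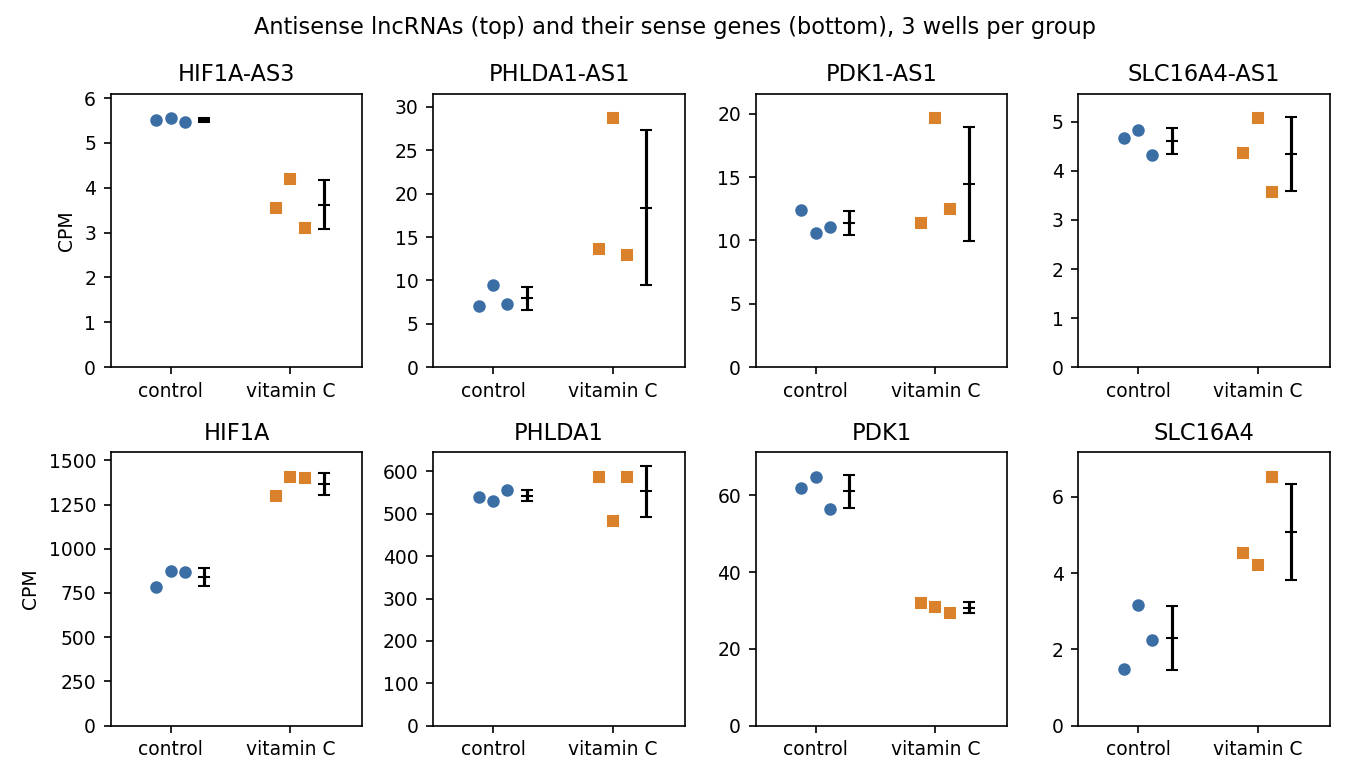
CPM (y axis, from 0) of 4 antisense lncRNAs (top) and their sense genes (bottom) in 3 control wells (circles) and 3 vitamin C wells (squares); the bar beside each group is the mean ± SD. HIF1A-AS3 falls while HIF1A rises, PHLDA1-AS1 rises while PHLDA1 overlaps between groups, and PDK1-AS1 and SLC16A4-AS1 overlap between groups while their sense genes do not.

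THAP9-AS1, the other member that fell, went from 37.1, 32.5 and 33.8 CPM in the control wells to 29.4, 22.3 and 23.6 CPM in the vitamin C wells. The groups did not overlap, and the log2 fold change was -0.46 (SE 0.11, adjusted P = 0.0358 by edgeR). It overlaps the 5′ end of THAP9, a gene derived from a transposase, and all of its exonic bases also lie in the body of SEC31A, a coat protein gene on the same strand. SEC31A had 282 ± 17.1 CPM in the control wells and 274 ± 24.3 CPM in the vitamin C wells (SD, n = 3 each), which gave a difference of -0.04 on the log2 scale (adjusted P = 0.799 by edgeR). THAP9 had a log2 change of -0.17 and did not pass (adjusted P = 0.598 by edgeR).

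In 3 pairs both partners rose. IRF1-AS1, antisense to the interferon-response transcription factor IRF1, had 3.47, 2.71 and 3.13 CPM in the control wells and 5.71, 6.88 and 4.52 CPM in the vitamin C wells. Its log2 fold change was 0.87 (SE 0.19, adjusted P = 0.0284 by edgeR) and that of IRF1 was 0.74 (SE 0.09, adjusted P = 0.00279 by edgeR). The ratio between them overlapped between the groups. ALDH1A3-AS1 rose by 0.79 (SE 0.19, adjusted P = 0.0353 by edgeR) beside a rise of 0.38 (SE 0.09, adjusted P = 0.0372 by edgeR) in ALDH1A3, which encodes an enzyme of retinoic acid synthesis. PLXNB3-AS1 rose by 0.67 (SE 0.17, adjusted P = 0.0376 by edgeR) beside a rise of 0.70 (SE 0.18, adjusted P = 0.0452 by edgeR) in PLXNB3, a semaphorin receptor. ALDH1A3 lost its call with any single library left out, as did PLXNB3, which also missed the threshold in DESeq2 (adjusted P = 0.0614).

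**Figure D4:**
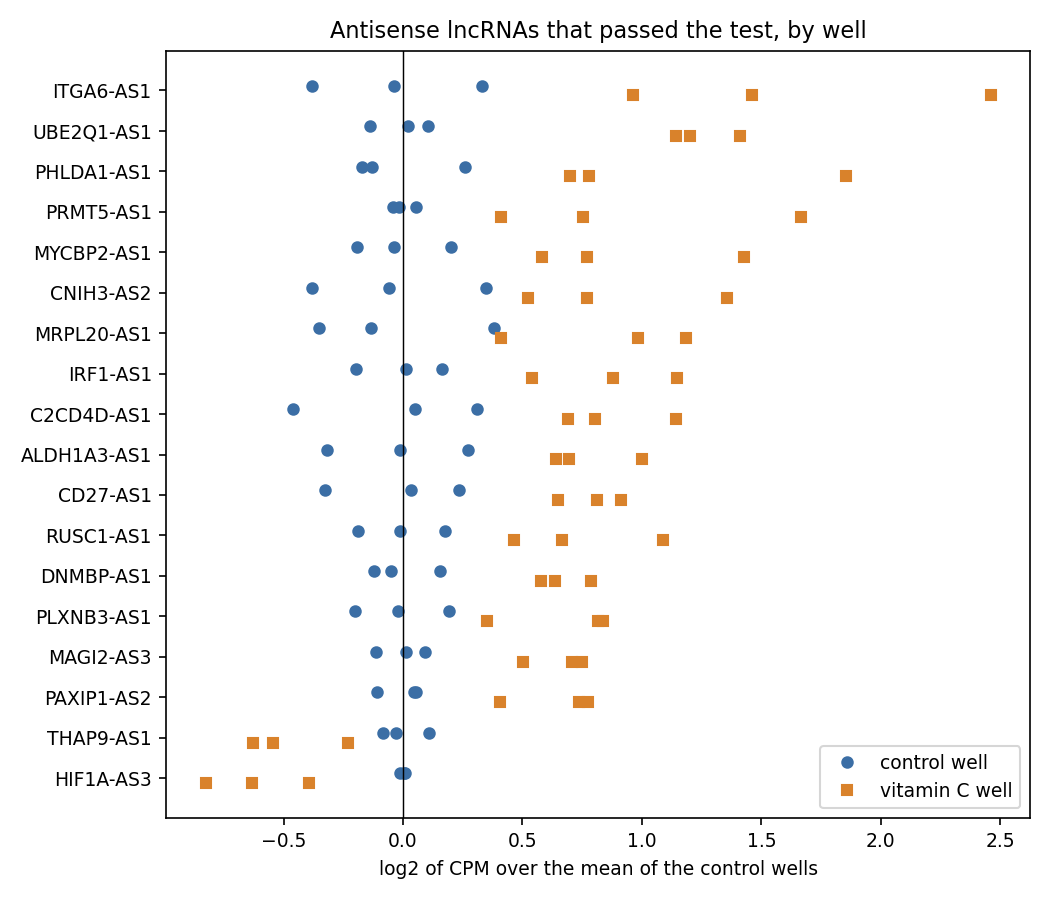
For the 18 members that passed the test (rows), log2 of the CPM in each well over the mean of the control wells (x axis), with control wells as circles and vitamin C wells as squares. The 16 that rose and the 2 that fell show no overlap between groups, and vitamin C 2 is the highest well in 10 of the 16.

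The other 13 members that rose, UBE2Q1-AS1 and PHLDA1-AS1 among them, had sense genes that did not pass or were too low to be tested. ITGA6-AS1, inside the integrin gene ITGA6, had the largest log2 fold change, 1.70 (SE 0.41, adjusted P = 0.0351 by edgeR), on a mean count of 21. It had 0.455, 0.577 and 0.746 CPM in the control wells and 1.63, 3.26 and 1.15 CPM in the vitamin C wells, and without vitamin C 2 the log2 fold change was 1.18 (adjusted P = 0.0822 by edgeR). PRMT5-AS1 had 3.59, 3.77 and 3.53 CPM in the control wells and 4.82, 11.5 and 6.12 CPM in the vitamin C wells. Its log2 fold change was 1.03 (SE 0.27, adjusted P = 0.0443 by edgeR), and without vitamin C 2 it was 0.60 (adjusted P = 0.0870 by edgeR). PRMT5, an arginine methyltransferase, had a log2 change of -0.31 and did not pass by edgeR (adjusted P = 0.0712), while DESeq2 gave an adjusted P of 0.0386.

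MAGI2-AS3, the member with the next smallest P after UBE2Q1-AS1, had 10.9, 12.6 and 11.9 CPM in the control wells and 16.7, 19.8 and 19.2 CPM in the vitamin C wells. The groups did not overlap, and the log2 fold change was 0.66 (SE 0.11, adjusted P = 0.0113 by edgeR). It passed in 11 of 12 alternatives and had an adjusted P of 0.0508 without control 1. MAGI2, a membrane scaffold gene, stood at only 0.0369 CPM per kb beside 0.853 for MAGI2-AS3. MRPL20-AS1, at the end of a mitochondrial ribosomal protein gene, had 14.5, 16.9 and 24.1 CPM in the control wells and 24.6, 42.1 and 36.6 CPM in the vitamin C wells. The highest control well and the lowest treated well almost met, and the log2 fold change was 0.90 (SE 0.20, adjusted P = 0.0293 by edgeR).

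Among the remaining members that rose, CNIH3-AS2, MYCBP2-AS1 and C2CD4D-AS1 had log2 fold changes of 0.91, 0.95 and 0.86. CNIH3 encodes an auxiliary protein of glutamate receptors and MYCBP2 a ubiquitin ligase, and neither passed. Without vitamin C 2 the log2 fold changes of CNIH3-AS2 and MYCBP2-AS1 were 0.63 and 0.66, and neither passed. RUSC1-AS1, CD27-AS1, DNMBP-AS1 and PAXIP1-AS2 had log2 fold changes between 0.65 and 0.78. CD27, a receptor of lymphocytes, had a mean count of 0.833 and C2CD4D of 1.67, and neither could be tested, so these antisense RNAs rose beside sense genes that were almost silent.

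Sense genes were also examined where they passed and the member did not. Of 247 sense genes tested, 13 rose and 8 fell (8.5%), close to the 7.08% of all genes, and 17 pairs had a sense gene that passed beside a member that did not. PDK1, a kinase that restrains pyruvate entry into mitochondria, fell to 32.0, 30.9 and 29.2 CPM in the vitamin C wells from 61.8, 64.8 and 56.3 CPM in the control wells. PDK1-AS1, which overlaps its 5′ end, had 12.4, 10.6 and 11.1 CPM in the control wells and 11.3, 19.6 and 12.4 CPM in the vitamin C wells. The partners of this pair had log2 fold changes of -0.99 (SE 0.09, adjusted P = 0.000289 by edgeR) for PDK1 and 0.35 (SE 0.18, adjusted P = 0.242 by edgeR) for PDK1-AS1. Their log2 ratio rose by 1.29 with no overlap between groups (exact two-sided permutation P = 0.1, the smallest possible).

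SLC16A4, a monocarboxylate transporter gene, rose from 2.29 ± 0.837 to 5.08 ± 1.26 CPM (SD, n = 3 each), with a log2 change of 1.14 (SE 0.26, adjusted P = 0.0316 by edgeR). Omission of control 1, control 3 or vitamin C 1 ended this call, with adjusted P values by edgeR of 0.112, 0.0635 and 0.0524. SLC16A4-AS1, a single exon block inside the body of SLC16A4 that shares no exonic base with it, had 4.61 ± 0.261 and 4.34 ± 0.755 CPM, and its log2 fold change was -0.10 (adjusted P = 0.731 by edgeR). CYP1B1, an oxidizing cytochrome P450, had a log2 change of 0.95 (adjusted P = 0.000254 by edgeR), and CYP1B1-AS1 had one of 0.62 that narrowly missed the threshold (adjusted P = 0.0521 by edgeR). BZW1, a regulator of translation initiation, and DUT, which removes dUTP, fell by 0.57 and 0.41 on the log2 scale, and BZW1-AS1 and DUT-AS1 had values of 0.27 and 0.02. HMGN3, a nucleosome-binding protein gene, rose by 0.61, while HMGN3-AS1 had a value of -0.16. Omission of control 1 or 2 ended the calls of DUT (adjusted P by edgeR of 0.0754 and 0.0546) and HMGN3 (0.0993 and 0.0787), and HMGN3 also missed the threshold without vitamin C 1 (0.0541).

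In other pairs of this kind the member had a value on the same side of 0 as its sense gene. MELTF, which encodes an iron-binding surface protein, rose by 0.44 (adjusted P = 0.0203 by edgeR). MELTF-AS1 had 2.05 ± 0.684 CPM in the control wells and 3.86 ± 0.774 CPM in the vitamin C wells (SD, n = 3 each), with no overlap. Its log2 fold change of 0.90 missed the threshold by edgeR (adjusted P = 0.0543) and passed by DESeq2 (adjusted P = 0.0434). ZNF528, a zinc finger gene, rose by 0.38 (adjusted P = 0.0372 by edgeR), and ZNF528-AS1 had a value of 0.35 (adjusted P = 0.0710 by edgeR) with no overlap between groups. SIPA1L1 rose by 0.47 (adjusted P = 0.0113 by edgeR) beside 0.14 for SIPA1L1-AS1, whose groups overlapped. Omission of control 1 or 2 ended the call of MELTF, omission of control 2 that of SIPA1L1, and the replicate block or omission of any single library but vitamin C 3 that of ZNF528.

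Across the 250 pairs with a tested sense gene, the log2 fold changes of the members and of their sense genes had a Pearson r of 0.118 and a Spearman rho of 0.144. This is a description across pairs measured in the same 6 libraries, and pairs are not independent replicates. Both partners were above 0 in 89 pairs and below 0 in 38. The member was above 0 and the sense gene below in 78, and the reverse held in 45. By the test, 3 of the 250 pairs moved up together, 1 moved apart, 11 had only a member that rose, 1 had only a member that fell, 9 had only a sense gene that rose and 8 only one that fell, while 217 showed no call. In 39 further pairs the sense gene was too low to be tested. In 42 of the 250 pairs (16.8%) the log2 ratio of member to sense gene was higher in every vitamin C well than in every control well, and in 20 (8%) it was lower. Together these were 24.8% of the pairs, beside 32.3% of all genes whose own levels did not overlap.

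**Figure D5:**
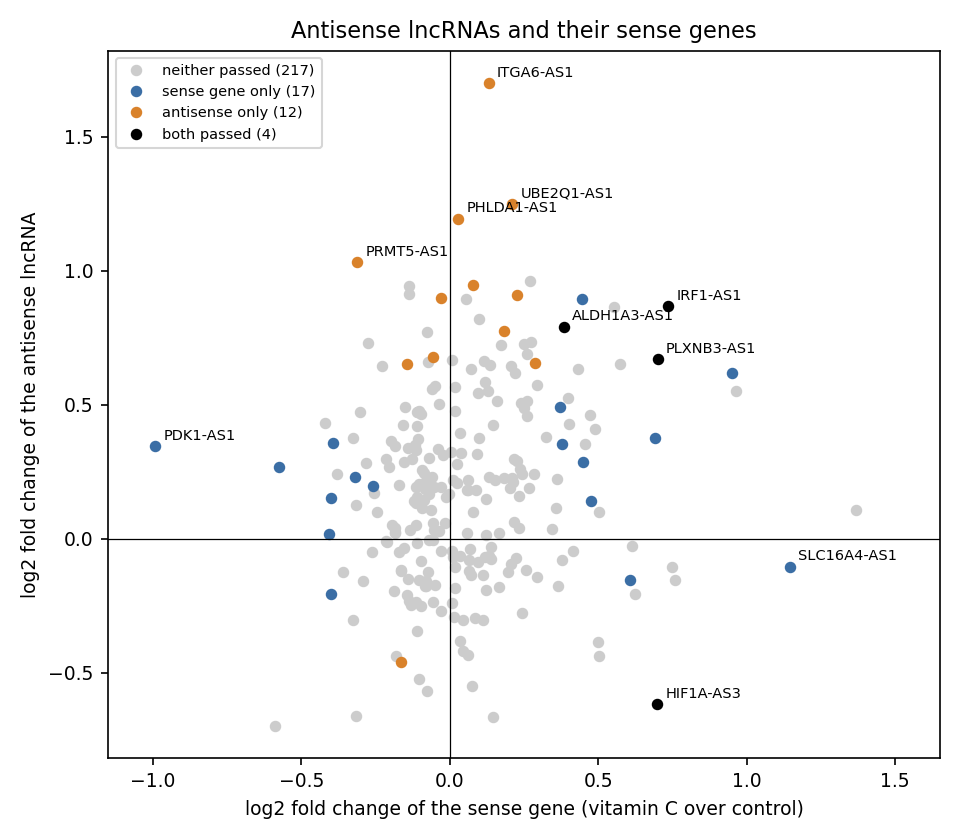
Log2 fold change after vitamin C of each antisense lncRNA (y axis) against that of its sense gene (x axis) in 250 pairs, coloured by which partner passed the test. Most members that rose stand near 0 on the axis of the sense gene, HIF1A-AS3 stands alone in the lower right among pairs in which both passed, and PDK1-AS1 stands at the far left.

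The position of a member relative to its sense gene was also compared. Of 52 members inside the body of the sense gene, 5 rose (9.62%) and 0 fell. Of 66 that overlapped at the 3′ ends, 6 rose (9.09%) and 1 fell (1.52%). Over all genes tested 3.6% rose and 3.48% fell. Of 126 members that overlapped the sense gene at the 5′ ends, 4 rose (3.17%) and 1 fell (0.794%). Of 30 that enclosed the sense gene none passed by edgeR and DESeq2 passed 1. An unadjusted P under 0.05 by edgeR was found in 11 of the 30, all higher. The same cut-off held 2177 higher and 1997 lower of all 15261 genes tested. Head to head pairs that did not overlap numbered 13, with 1 higher. The 5′ ends were within 1 kb in 75 pairs, of which 1 member rose and 1 fell, and further apart in 214, of which 15 rose and 1 fell. The median log2 fold change was 0.06 in the former and 0.20 in the latter. No difference between these positions was tested.

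Members with little overlap with any gene on the other strand had a median nearer 0. Of 52 members with under 10% of their exonic bases in an opposite-strand gene body, 2 rose and 1 fell, and the median log2 fold change was 0.05. Of 69 members with over 90% of their exonic bases in the body of the sense gene, 7 rose (10.1%) and 1 fell (1.45%), and the median was 0.21. Over all genes tested 3.6% rose and 3.48% fell. The difference between these subsets of members was not tested. The members that passed had a median exonic length of 3486.5 bases beside 3709 in the others, and a median mean count of 89.3 beside 47.2. Of the 18 that passed, 17 had a mean count of at least 50.

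The most abundant member, FGD5-AS1, had 221, 221 and 215 CPM in the control wells and 211, 221 and 229 CPM in the vitamin C wells, and its groups overlapped. OIP5-AS1, which is known to bind microRNAs, had 125 ± 3.69 and 124 ± 10.7 CPM (SD, n = 3 each). Of the 8 most abundant members per kb, PHLDA1-AS1, MRPL20-AS1 and UBE2Q1-AS1 rose, and FGD5-AS1, RRM1-AS1, WAC-AS1, PSMA3-AS1 and TUBA1B-AS1 did not pass. TUBA1B-AS1 had 39.6, 38.6 and 29.2 CPM in the control wells and 32.2, 64.5 and 52.8 CPM in the vitamin C wells.

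For antisense RNAs often studied in cancer the count of calls lay near the share of all genes. Of 18 such RNAs tested, 15 of them members, 0 passed by edgeR and 0 by DESeq2, beside 7.08% of all genes by edgeR. An unadjusted P under 0.05 by edgeR was found in 4 of the 18, all higher. This cut-off held 2177 higher and 1997 lower of all 15261 genes tested. The median log2 fold change of the 18 was 0.16. AFAP1-AS1, antisense to an actin filament-associated protein gene, had 12.4 ± 1.25 and 15.8 ± 1.12 CPM with a log2 change of 0.35 (SE 0.12, adjusted P = 0.0807 by edgeR). VIM-AS1, at the start of the vimentin gene, had 9.59 ± 0.687 and 11.8 ± 1.73 CPM with a log2 change of 0.31 (SE 0.13, adjusted P = 0.155 by edgeR). ZEB1-AS1, beside the gene of a transcription factor of the mesenchymal state, had a log2 change of 0.16 (SE 0.14, adjusted P = 0.512 by edgeR). Of 13 well known lncRNAs outside the name pattern, 2 rose (15.4%) and 4 fell (30.8%), beside 3.6% and 3.48% of all genes tested. The median log2 fold change of the 13 was -0.08. Among those that fell were the snoRNA host genes SNHG1, SNHG5 and GAS5, by 0.65, 0.67 and 0.48 on the log2 scale. Omission of control 1 or 2 ended the calls of SNHG5 and GAS5.

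At the threshold for members, RAB11B-AS1 and SBNO1-AS1 had a mean count of 20 and ZNF790-AS1 of 20.2, just inside. C1QTNF1-AS1 and RPL26L1-AS1, with 19.8 each, lay just outside. Their log2 fold changes were 0.65, 0.19 and 0.00 for the members just inside and 0.89 and -0.18 for the genes just outside. With a threshold of 10 counts, 20 of 437 tested members passed, and with one of 50 counts, 17 of 149. The share over all genes tested was 7.08%.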

How the data were processed

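Total RNA of 6 wells, 3 per group, was sequenced as paired-end reads after ribosomal depletion. The submitters' processing notes name CASAVA 1.4 for base calling, Trim Galore for trimming and STAR for alignment to hg38. For each library the authors deposited raw read counts per gene, without normalization. The sources used here do not give the versions of STAR and of the gene annotation. A table of all libraries held the same counts and was not used. The 4 summary lines of each file, 50.6% to 69.7% of the reads, entered neither library sizes nor tests.

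Gene types, symbols and positions came from GENCODE 44 on GRCh38, which held 56558 of 60675 identifiers. The symbol DNAJC9-AS1 was held by 2 identifiers, each kept as a gene. Differential expression was tested over all genes with edgeR 4.0.16 in R 4.3.3 (TMM factors, filterByExpr with a minimum count of 10, glmQLFit and glmQLFTest, Benjamini-Hochberg adjustment). An adjusted p under 0.05 was called. DESeq2 1.42.0 (Wald test, on genes with at least 1 count, with adjusted P values that it did not give left out) and limma 3.58.1 (voom) were alternatives, as were other scalings, no filter, the replicate number as a block, omission of single libraries and other thresholds for members. Ratios of member to sense gene were formed from CPM on the log2 scale (prior count 2). Before averaging, replicates of a group were compared, and none agreed within the noise of counting (chi-square over degrees of freedom from 4.54 to 21.6). The edgeR, DESeq2 and voom steps were tested on simulated data. Named genes were the members that passed with their sense genes, members whose sense gene passed (the 12 smallest p), the 8 most abundant members per kb, members often studied in cancer, called genes of the lists and those nearest the threshold on either side, of which 1 is not reported here. CD45, SEC31A, HIF1A-AS1 and the cell line markers were named for context. The members, lists and rules were chosen with earlier results of these data known.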

Additional observations from a re-analysis of the deposited data

How the results depend on the processing

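Low counts limit these results: 142 of 291 members had a mean count under 50, and the median SE of a member was 0.22 on the log2 scale. The count of members that passed, 18 with all libraries, ranged from 1 to 27 with a single library left out. Omission of control 1, 2 or 3 left 1, 2 or 8 calls, and omission of vitamin C 1, 2 or 3 left 11, 6 or 27, while the calls over all genes ranged from 128 to 1900 in the same fits. Members that rose ranged from 1 to 26 and members that fell from 0 to 1, and sense genes that passed ranged from 6 to 35 (4 to 20 higher, 2 to 15 lower). The median log2 fold change of the members ranged from 0.10 to 0.20. The cause of these changes was not tested beyond the smaller number of libraries.

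DESeq2 passed 22 members (7.56%), 21 higher and 1 lower, beside 10.7% of all genes. It passed 15 sense genes as higher and 14 as lower. With upper-quartile factors 20 members passed (6.87%), 1 of them lower, beside 6.97% of all genes. In that fit 4 sense genes passed as lower. With no filter on low counts 37 members passed (12.7%), 34 of them higher, beside 6.65% of all genes in that fit. In the same fit 39 sense genes passed, 23 higher and 16 lower. Members with under 10% of their exonic bases in an opposite-strand body gave 3 calls, 2 higher and 1 lower, with a median of 0.049. A subset of 266 members, chosen after seeing the data, had under 10% of their exonic bases in another gene body on their own strand. Of these, 16 passed, 15 higher and 1 lower, beside 7.08% of all genes tested. Causes were not tested.

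Same-numbered wells did not deviate together (correlations of -0.016, -0.056 and -0.045). The deviations were taken from the mean of each group, so these values cannot decide whether same-numbered wells were handled together. With the replicate block 16 members passed (5.5%), 1 of them lower, beside 4.79% of all genes. Of these members 13 were shared with the calls without the block. In the same block fit 11 sense genes passed, 8 higher and 3 lower. The correlations of unlike numbers ranged from -0.048 to 0.107.

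Reversals concerned only genes that passed in neither fit. With upper-quartile factors the log2 fold changes were 0.0062 for MRPL20, 0.00040 for DLGAP1-AS2, 0.033 for OIP5-AS1 and 0.032 for ZNF790-AS1. DUT-AS1 was at -0.0061 with voom and -0.0059 without the filter, and FGD5-AS1 at -0.0089 with DESeq2 and -0.015 without the filter. With 1 library left out, the values ranged from -0.020 to 0.11 for PHLDA1, -0.18 to 0.044 for MRPL20, -0.059 to 0.46 for SIPA1L1-AS1, -0.11 to 0.52 for BZW1-AS1, -0.20 to 0.16 for DUT-AS1, -0.23 to 0.033 for SLC16A4-AS1, -0.023 to 0.036 for FGD5-AS1, -0.036 to 0.31 for TMPO-AS1, -0.21 to 0.026 for LOXL1-AS1, -0.17 to 0.034 for DLGAP1-AS2, -0.064 to 0.059 for OIP5-AS1, -0.20 to 0.094 for ZNF790-AS1 and -0.50 to 0.17 for RPL26L1-AS1.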
